A study of Mus musculus with 16 samples.

Results

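Voltage-gated sodium channels, voltage-gated calcium channels with their auxiliary subunits, hyperpolarization-activated (HCN) channels and transient receptor potential (TRP) channels were examined in the hypothalamus of weanling F1 mice. A gene was included if its symbol begins with Scn or Hcn and a digit, or with Cacna, Cacnb, Cacng, Trpc, Trpm or Trpv. Of 16593 genes named by a probe of the array, 50 met this rule, with 84 probes. Of these 50 genes, 36 had at least 1 probe detected above the negative controls (detection p under 0.05) on 8 or more arrays and were tested, with 53 probes, beside 10244 tested genes in all. The rule works on letters. It also takes in Trpc4ap, which encodes a protein associated with the TRPC4 channel and not a channel, and the Cacng subunits of the TARP type, which serve AMPA receptors.

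The samples were hypothalami of 16 female C57BL/6J mice aged 21 days, each measured on 1 Illumina MouseRef-8 v2 array. The 8 CON pups were nursed by mothers with free access to chow. The 8 LUN pups were nursed by mothers given 50% of the amount that control mothers had eaten on the day before, and litters of both groups held 8 pups. The labels name no mutant allele or transgene, and the methods describe a block cut at set distances from the third ventricle and the base of the brain. Each of 2 BeadChips (the slides that carry the arrays) held 4 CON and 4 LUN arrays, with CON in the first positions and LUN in the last, so position cannot be told apart from the group.

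Sodium channels carry the upstroke of the action potential, with a pore-forming alpha subunit and beta subunits that tune its gating and placement. Calcium channels couple membrane voltage to transmitter release, burst firing and transcription, and their pore subunit is brought to the membrane by beta and alpha2delta subunits. HCN channels open on hyperpolarization and set resting potential and rhythmic firing. TRP channels pass cations in response to lipids, temperature, osmolality and divalent ions. Neurosecretory neurons of the hypothalamus fire in patterns shaped by these currents, and relay neurons of the thalamus, which lies just above the hypothalamus, are known for bursts carried by low-threshold (T-type) calcium channels.

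Of the 36 tested genes, 5 rose in LUN (Trpm6, Cacng5, Cacnb4, Scn8a and Cacna2d3), 2 fell (Hcn3 and Trpc4ap) and 29 did not pass an adjusted p of 0.05. Over all tested genes, 7.17% rose and 8.59% fell. Only Trpm6 also passed a change of 1.5-fold, which 0.84% of all tested genes passed upward and 0.547% downward. The median log2 change over the 36 genes was 0.08, with 21 positive and 15 negative changes, whereas the median over all tested genes was −0.01 and 47.1% of them had a positive change. Without normalization between arrays these medians were −0.16 and −0.26, so the gap between them was of similar size and the median of the 36 genes turned negative. Among single probes, 9 of the 53 rose and 3 fell, against 6.92% and 8.08% of all tested probes. CON and LUN arrays overlapped in every one of the 36 genes except Trpc4ap, which was lower in LUN. Of all tested genes, 0.927% did not overlap and were higher in LUN, and 1.32% did not overlap and were lower. The changes of the 29 genes that did not pass lay between −0.16 and 0.34. The median spread within groups (pooled SD on the log2 scale) was 0.19 over the 36 genes and 0.14 over all tested genes.

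**Figure D1:**
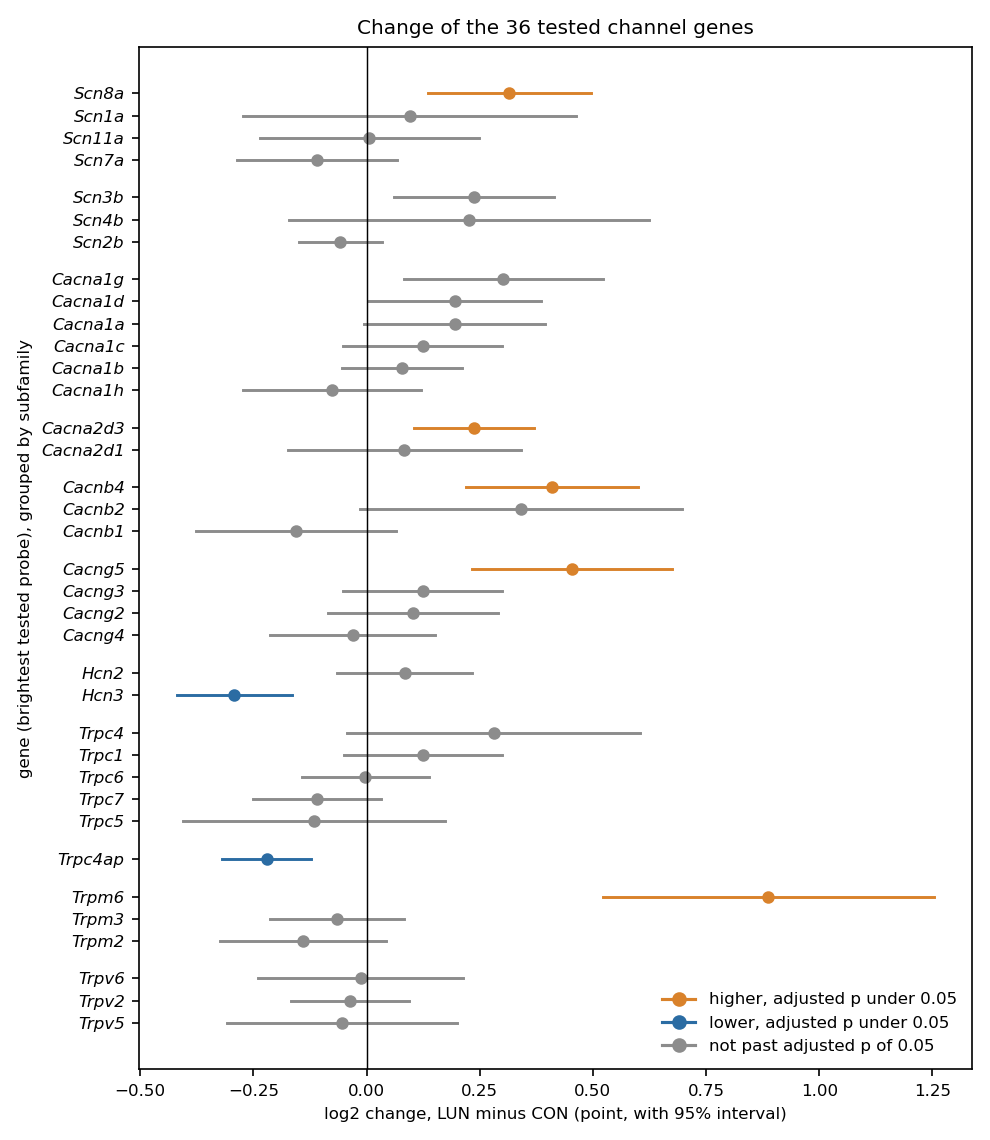
Log2 change (LUN minus CON, x axis) of the 36 tested genes by subfamily (y axis), each from its brightest tested probe, with 95% intervals from limma. Orange marks the 5 genes that rose, blue the 2 that fell and grey the 29 that did not pass; the interval of Trpm6, from 0.52 to 1.25, is the farthest to the right.

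Arrays CON 4 and CON 8, which were on different BeadChips, stood apart from the other 6 CON arrays in genes of the thalamus. Of the 17 thalamic markers listed, 16 were tested (Plekhg1 was not) and 14 rose, led by Slc17a7 (log2 change 2.20), Prkcd (1.78), Tnnt1 (1.56) and Gbx2 (1.51). The summed normalized signal of the 16 was 13960 on CON 4 and 10230 on CON 8, 3673 to 6582 on the other 6 CON arrays, and 11230 to 14780 on the LUN arrays. Of 10 tested hypothalamic markers among 19 listed, 5 fell, led by Oxt (−0.89), Avp (−0.76), Hcrt (−0.69) and Trh (−0.61). All that fell were neuropeptide genes. The tested transcription factors of the list did not pass, with changes from −0.29 (Six3) to 0.06 (Foxb1). The summed signal of the 10, most of it from the neuropeptide genes, was 9820 to 17800 in CON and 7788 to 12300 in LUN. The same sum was 9820 on CON 4 and 10340 on CON 8. All 5 tested red cell genes and 6 of 10 meningeal genes fell, and 1 of 4 tested skeletal muscle genes rose (Atp2a1, log2 change 1.26). None of 6 tested choroid plexus genes passed, and the other 10 marker lists had 0 to 2 rises and 0 to 3 falls each. The part of these markers in the changes of the channel genes was not tested. In bulk tissue a change in the number of cells of a type and a change in mRNA per cell cannot be told apart. Mean array signal before normalization was 451 ± 35.2 (SD, n = 8) in CON and 376.6 ± 23.6 in LUN (two-sided exact permutation p = 0.000466).

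The sequences just upstream are shown for Cacng5 and Trpc4ap, since of the 7 genes that rose or fell only these 2 had a listed start at the outer end of the RefSeq gene on GRCm38.p6. Cacng5 rose on both tested probes and Trpc4ap is the gene without overlap between CON and LUN. Each sequence is the 250 bases before that start, with GC boxes (GGGCGG on either strand) in capitals. Which start is used in these samples was not measured.
Cacng5 (chr11:107915056-107915305, minus strand): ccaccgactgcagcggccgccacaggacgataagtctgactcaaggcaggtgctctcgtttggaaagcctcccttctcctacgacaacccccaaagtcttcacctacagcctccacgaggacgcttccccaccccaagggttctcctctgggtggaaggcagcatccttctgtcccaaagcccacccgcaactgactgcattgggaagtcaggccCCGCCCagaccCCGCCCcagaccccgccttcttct
Trpc4ap (chr2:155692385-155692634, minus strand): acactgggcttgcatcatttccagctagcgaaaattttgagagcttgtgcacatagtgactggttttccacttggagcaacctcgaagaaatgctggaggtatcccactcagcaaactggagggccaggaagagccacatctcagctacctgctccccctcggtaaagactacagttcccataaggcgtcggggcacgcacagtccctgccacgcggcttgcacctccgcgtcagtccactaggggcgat
The Cacng5 window holds 2 GC boxes and the Trpc4ap window none, and 26.8% of 19827 such windows of mouse genes hold one. Neither window holds a TATA box (TATAAA) or a cAMP response element (TGACGTCA) on either strand, which 14.9% and 1.43% of those windows do. GC content was 62.0% for Cacng5 and 55.6% for Trpc4ap, against a median of 50% over those windows.

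Among the sodium channel alpha subunits, Scn8a, whose channel gathers at axon initial segments and nodes of Ranvier, rose in LUN. Its log2 normalized signal was 5.93, 6.45 and 6.52 (lowest, median and highest of 8 arrays) in CON and 6.48, 6.62 and 6.79 in LUN. Thus 6 LUN arrays lay above every CON array, and the other two overlapped with CON 7 (6.52) and CON 8 (6.49). The change was 0.31 (SE 0.09, 1.24-fold, adjusted p = 0.019). Of the other alpha subunits tested, Scn7a, a sodium-level sensor of glia in circumventricular organs, had the largest change, −0.11 (adjusted p = 0.411), and was detected on 9 of 16 arrays. Scn1a, whose channel is prominent in fast-spiking interneurons, had a change of 0.10 with a 95% interval of −0.27 to 0.46. Scn11a, best known from sensory neurons, had a change of 0.01 (−0.24 to 0.25).

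None of the 3 tested sodium channel beta subunits passed. Scn3b had the largest change, from 8.22 ± 0.22 (SD, n = 8) in CON to 8.46 ± 0.12 in LUN, a log2 change of 0.24 (SE 0.08, adjusted p = 0.0662), and its second probe gave 0.40 (adjusted p = 0.0647). Scn4b, which is tied to resurgent sodium current, varied most within groups of all 36 genes (pooled SD 0.42), with a change of 0.23 and a 95% interval of −0.17 to 0.62. Scn2b varied least (pooled SD 0.07), with a change of −0.06 (−0.15 to 0.03).

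None of the 6 tested pore subunits of calcium channels passed from its brightest probe, and their changes ran from −0.08 to 0.30. Cacna1g encodes the T-type channel that is dominant in thalamic relay neurons. Its signal was 8.50, 8.88 and 9.35 in CON (lowest, median, highest) and 9.02, 9.20 and 9.36 in LUN. The 6 CON arrays other than CON 4 (9.24) and CON 8 (9.35) all lay below every LUN array. The change was 0.30 (SE 0.10, adjusted p = 0.0586). It was 0.44 (adjusted p = 0.000932) without CON 4 and CON 8, a pair picked from these same data. Its second probe gave 0.32 (adjusted p = 0.115). The other T-type gene tested here, Cacna1h, had a change of −0.08 (95% interval −0.27 to 0.12), with CON 4 (8.61) and CON 8 (8.86) below the other CON arrays (9.07 to 9.31). Cacna1d, an L-type channel that opens at relatively negative voltages, had changes of 0.19 (adjusted p = 0.16) from its brightest probe and 0.29 (adjusted p = 0.0414) from a dimmer one. Cacna1a (P/Q-type), Cacna1b (N-type) and Cacna1c (L-type) had changes of 0.19, 0.08 and 0.12.

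Both beta and alpha2delta subunits had a member that rose. Cacnb4, the beta subunit mutated in the lethargic mouse, which has ataxia and absence-like seizures, was at 9.61, 9.72 and 10.25 in CON and at 10.13, 10.25 and 10.46 in LUN. The overlap came from CON 4 (10.20) and CON 8 (10.25), while the other 6 CON arrays (9.61 to 9.90) lay below all LUN arrays. The change was 0.41 (SE 0.09, 1.33-fold, adjusted p = 0.00608). A dimmer Cacnb4 probe gave −0.17 (adjusted p = 0.525). On it CON 4 (6.36) and CON 8 (6.38) lay just above the other CON arrays (5.34 to 6.34), and LUN ran from 5.48 to 6.42. Cacna2d3, an alpha2delta subunit, was at 8.93, 9.11 and 9.27 in CON and at 9.20, 9.33 and 9.59 in LUN. Here CON 4 (8.98) and CON 8 (9.27) lay inside the range of the other CON arrays (8.93 to 9.27) and at its upper edge. The change of Cacna2d3 was 0.24 (SE 0.06, 1.18-fold, adjusted p = 0.017), and it turned to −0.043 when arrays were not normalized against each other, where the median of all tested genes was −0.26. Cacnb2 had a change of 0.34 (SE 0.17, adjusted p = 0.186), Cacnb1 one of −0.16 (adjusted p = 0.34) and Cacna2d1, a target of gabapentin, one of 0.08 (adjusted p = 0.697).

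**Figure D2:**
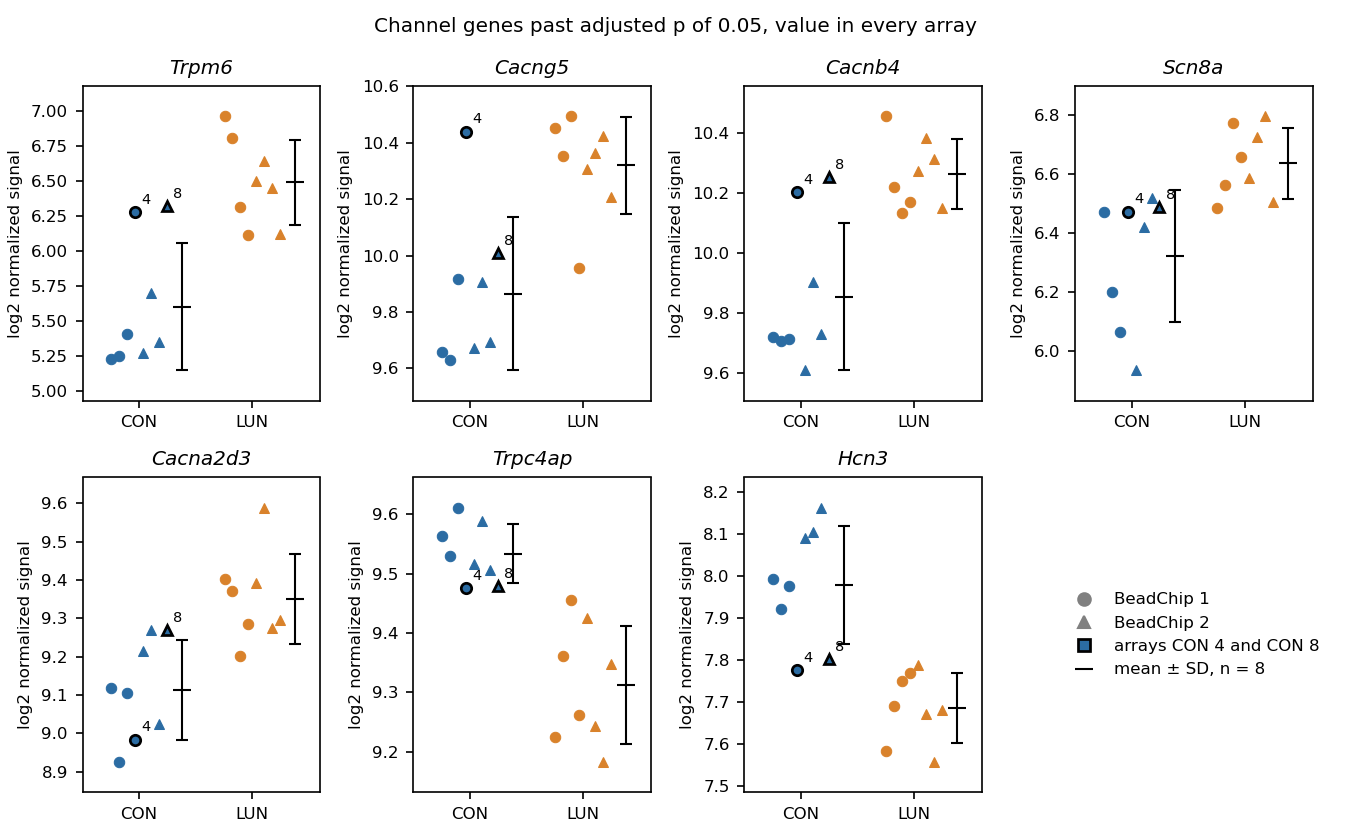
Log2 normalized signal (y axis) of the 7 genes past an adjusted p of 0.05 on each CON (blue) and LUN (orange) array, with circles for BeadChip 1 and triangles for BeadChip 2, and bars for mean ± SD (n = 8). Arrays CON 4 and CON 8 are outlined in black; for Trpm6, Cacng5, Cacnb4, Hcn3 and Trpc4ap they lie nearer to LUN than the other 6 CON arrays, for Scn8a and Cacna2d3 they do not both stand apart, and Trpc4ap alone shows no overlap.

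In the Cacng family, Cacng5 rose and the other 3 tested members did not pass. Cacng5 encodes a TARP, a protein that accompanies AMPA receptors and alters their gating. It was at 9.63, 9.80 and 10.44 in CON and at 9.96, 10.36 and 10.49 in LUN. The CON maximum was CON 4, followed by CON 8 (10.01), and the other 6 CON arrays (9.63 to 9.92) lay below all LUN arrays. The change was 0.45 (SE 0.11, 1.37-fold, adjusted p = 0.00792), and a second probe gave 0.44 (adjusted p = 0.00742). Cacng3 had a change of 0.12 (adjusted p = 0.338). The changes were 0.10 for Cacng2, which encodes stargazin, and −0.03 for Cacng4, with 95% intervals of −0.09 to 0.29 and −0.21 to 0.15.

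Of the HCN channels on the array, Hcn3 fell and Hcn2 did not pass. Hcn3 encodes a slowly gating channel of this family found in hypothalamus and other brain regions. It was at 7.78, 7.98 and 8.16 in CON and at 7.56, 7.69 and 7.79 in LUN. CON 4 (7.78) and CON 8 (7.80) were the lowest CON arrays, and the other 6 (7.92 to 8.16) lay above all LUN arrays. The change was −0.29 (SE 0.06, 0.817-fold, adjusted p = 0.00405). Both dimmer probes of Hcn3 had changes near 0, −0.02 (adjusted p = 0.953) and −0.04 (adjusted p = 0.836). Hcn2, which is widespread in brain and strong in thalamus, had a change of 0.08 (95% interval −0.07 to 0.23).

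No TRPC channel passed from its brightest probe. Trpc1, which joins other TRPC subunits in receptor-operated cation channels, had a change of 0.13 (adjusted p = 0.332) from its brightest probe and 0.58 (SE 0.17, adjusted p = 0.0245) from a dimmer one. On the dimmer probe CON 4 (6.14) and CON 8 (6.40) again exceeded the other CON arrays, which ran from 4.96 to 6.00, and LUN ran from 6.14 to 6.52. Trpc4, prominent in the lateral septum and activated through G proteins, had a change of 0.28 (adjusted p = 0.236), and Trpc5, Trpc6 and Trpc7 had changes of −0.12, 0.00 and −0.11. Trpc4ap, a scaffold that also serves tumor necrosis factor receptor signalling and a ubiquitin ligase, was at 9.48, 9.52 and 9.61 in CON and at 9.18, 9.30 and 9.46 in LUN, with no overlap. CON 4 (9.48) and CON 8 (9.48) were the lowest CON arrays, below the other 6 (9.51 to 9.61). The change was −0.22 (SE 0.05, 0.858-fold, adjusted p = 0.00472). Its 2 dimmer probes gave 0.10 (adjusted p = 0.498) and −0.08 (adjusted p = 0.324).

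Trpm6 had the largest change of the 36 genes. It encodes a magnesium channel fused to a kinase, best known for magnesium uptake in gut and kidney. The 8 CON arrays, in order, were at 5.23, 5.25, 5.41, 6.28, 5.28, 5.70, 5.35 and 6.32. The 8 LUN arrays were at 6.96, 6.81, 6.32, 6.12, 6.50, 6.64, 6.45 and 6.13. CON 4 and CON 8 thus lay within the LUN range, and the other 6 CON arrays below it. The change was 0.89 (SE 0.17, 1.85-fold, adjusted p = 0.00303), and the second tested probe gave 0.52 (SE 0.13, adjusted p = 0.0128), with CON 4 (5.55) and CON 8 (5.33) again above the other CON arrays (4.77 to 5.21). Trpm2, an ADP-ribose-gated channel that senses warmth in preoptic neurons, had a change of −0.14 (adjusted p = 0.296).

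Trpm3, a heat- and steroid-sensitive channel with strong expression in choroid plexus, was read by 4 tested probes. The brightest gave −0.07 (adjusted p = 0.577), the dimmer ones −0.02, 0.18 and −0.33, and only the last passed (adjusted p = 0.0321). On the probe with a change of 0.18, LUN 7 stood at 6.44 while the other LUN arrays ran from 4.68 to 5.44. LUN 7 was also the highest array on an untested Trpm3 probe (5.94). In contrast, it was the lowest LUN array on the brightest probe (5.53) and on the one with a change of −0.02 (5.59). On the probe with a change of −0.33 it was at 4.94. LUN 7 also had the highest summed signal of the choroid plexus markers, 20260, against 773.7 to 2322 in CON and 876.7 to 7565 on the other LUN arrays, and the part of these markers in the Trpm3 values was not tested.

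All 3 tested TRPV genes had changes near 0. Trpv5 and Trpv6, calcium-selective channels of epithelia, had changes of −0.05 (95% interval −0.31 to 0.20) and −0.01 (−0.24 to 0.21). Trpv2, an osmotically and mechanically sensitive channel known in the rat from vasopressin and oxytocin neurons, had a change of −0.04 (−0.17 to 0.09).

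**Figure D3:**
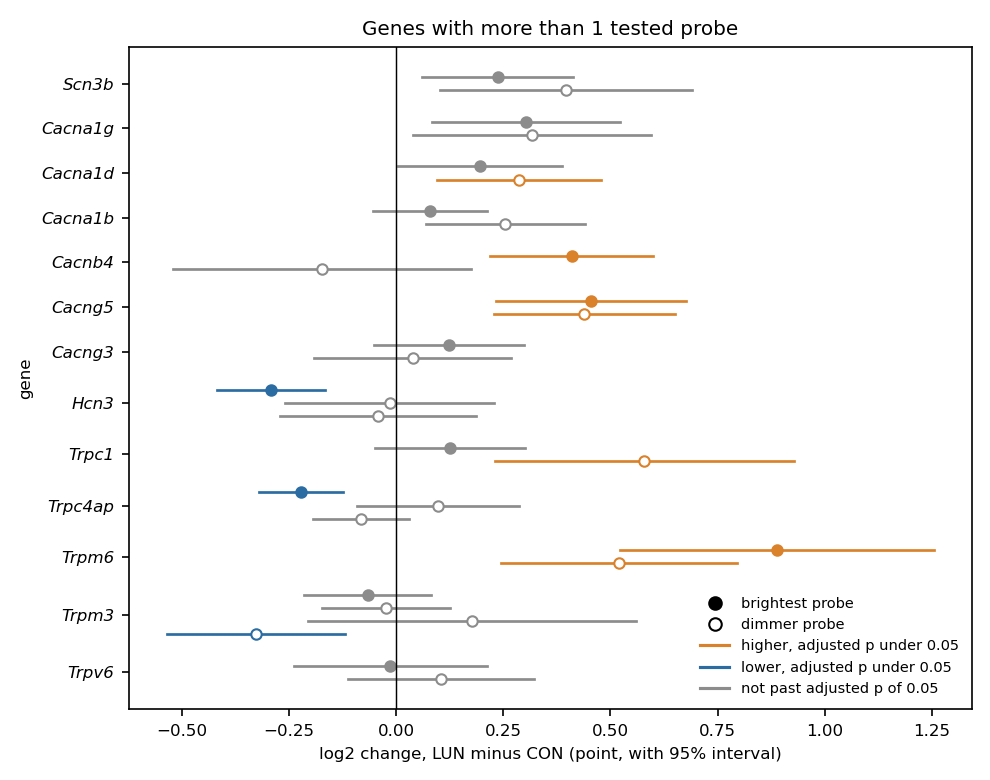
Log2 change (LUN minus CON, x axis) with 95% intervals for each tested probe of the 13 genes with more than 1 (y axis), filled points for the brightest probe and open points for dimmer ones, coloured where the adjusted p was under 0.05. Both probes of Trpm6 and of Cacng5 rose, whereas for Cacnb4, Hcn3 and Trpc4ap only the brightest probe passed, and for Cacna1d, Trpc1 and Trpm3 only a dimmer one.

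Of the 36 tested genes, 13 had more than 1 tested probe, and their probes did not always give the same call. Both tested probes of Trpm6 and of Cacng5 rose. In Cacnb4, Hcn3 and Trpc4ap the brightest probe passed and no other did, and in Cacna1d, Trpc1 and Trpm3 a dimmer probe passed and the brightest did not. Scn8a and Cacna2d3 had 1 tested probe each, so their changes have no second reading. The transcript that each probe reads was not looked up.

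CON 4 and CON 8 were singled out in these same data for thalamic marker levels near those of LUN. Leaving them out therefore favours a wider difference and is no independent check. Without them, the 5 genes that had risen and the 2 that had fallen all kept their calls. Cacna1g and Scn3b (change 0.28, adjusted p = 0.0371) passed as well. That made 7 genes that rose and 2 that fell, against 9.43% and 11.8% of all tested genes. With all 16 arrays these shares were 7.17% and 8.59%. The change of Trpm6 was then 1.12 (adjusted p = 2.8e-05), that of Cacng5 0.57, that of Cacnb4 0.53, that of Scn8a 0.37, that of Cacna2d3 0.24, that of Hcn3 −0.36 and that of Trpc4ap −0.24. The remaining 6 CON arrays lay entirely below LUN in 4 genes (Trpm6, Cacng5, Cacnb4 and Cacna1g) and entirely above LUN in 2 (Hcn3 and Trpc4ap), against 3.62% and 3.6% of all tested genes. CON 4 and CON 8 both exceeded the other 6 CON arrays in 7 of the 36 genes, against 8.48% of all tested genes. Besides these 4, the genes were Scn1a, Hcn2 and Cacng4.

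**Figure D4:**
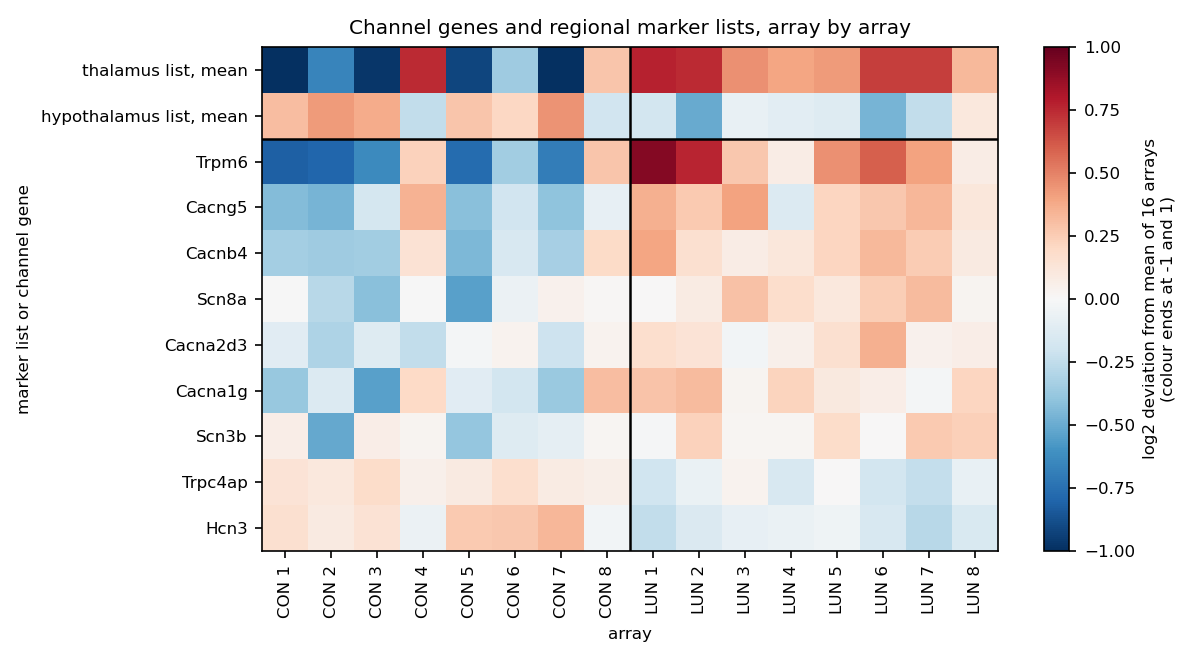
Deviation of each of the 16 arrays (x axis) from the mean of all arrays, on the log2 scale (colour, ends at −1 and 1), for the mean of the thalamic and hypothalamic marker lists and for 9 channel genes (y axis). CON 4 and CON 8 have thalamic list means of 0.75 and 0.28, among the LUN values of 0.32 to 0.77 or just below them. The same 2 columns stand apart from the other CON arrays for Trpm6, Cacnb4 and Cacna1g. For Cacng5 CON 4 does (0.35), while CON 8 (−0.08) is close to the next CON array (−0.18). For Hcn3 CON 4 (−0.06) and CON 8 (−0.03) lie below the other CON arrays (0.09 to 0.33). For Trpc4ap they are also the lowest CON arrays (0.05 and 0.06).

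The direction of all 7 changes was the same on both BeadChips, as it was for 26 of the 36 genes. Taken on BeadChip 1 and BeadChip 2 separately, with 4 CON and 4 LUN arrays each, the changes were 1.01 and 0.77 for Trpm6, 0.40 and 0.51 for Cacng5, and 0.41 and 0.41 for Cacnb4. They were 0.32 and 0.31 for Scn8a, 0.28 and 0.19 for Cacna2d3, −0.22 and −0.37 for Hcn3, and −0.22 and −0.22 for Trpc4ap. None passed on BeadChip 1 alone and only Cacng5 on BeadChip 2 alone. With BeadChip as a block all 7 passed.

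A list of 50 related genes was read beside these channels. It held genes whose products bind, anchor or regulate them, and other ion channels such as the Ryr, Itpr, Orai and Mcoln families. Of the 50, 40 were on the array and 28 were tested. Of the 28, 9 rose, 1 fell and 18 did not pass, beside the 7.17% and 8.59% of all tested genes. Of the 10 that passed, the 4 with the largest changes were Rrad, a small GTPase that inhibits calcium channels (−0.49, adjusted p = 0.00984), Nfasc, a cell adhesion molecule of nodes and initial segments (0.47, adjusted p = 0.0083), Ryr3, a calcium release channel of internal stores (0.41, adjusted p = 0.00144), and Rims2, a scaffold that holds calcium channels at release sites (0.37, adjusted p = 0.0125). The other 6 that rose had changes of 0.18 to 0.36. Of these, 3 that were singled out after their values were seen did not overlap between the groups, where 0.927% of all tested genes did not overlap and were higher. These were Calm3, one of the calmodulin genes, Nrcam, an adhesion molecule of nodes, and Nedd4l, a ubiquitin ligase that removes sodium channels from the membrane. The median change over the 28 was 0.12. Rims1, another scaffold of release sites, had the largest change of the list, 0.54, and did not pass (adjusted p = 0.0682). Without CON 4 and CON 8, 10 rose and 1 fell, beside 9.43% and 11.8% of all tested genes.

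The other 14 genes of the rule had no probe detected on 8 or more arrays and give no comparison. No array detected a probe of Cacng1, Cacng6, Trpm1, Trpm4, Trpm5, Trpm7, Trpm8 or Trpv3. The most-detected probes of the rest passed on 6 arrays for Cacna1f (4 CON and 2 LUN) and Trpv4 (2 CON and 4 LUN), on 5 for Scn10a (1 CON and 4 LUN), on 3 for Cacng7, and on 1 for Cacng8 and Trpv1. These counts concern single probes against the negative controls and do not show that the mRNA was missing, as with Trpm7, whose channel is found in most cell types and which had 1 probe here.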

How the data were processed

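Intensity values were deposited by the authors as the GenomeStudio signal of each of 25697 probes, and the deposited signals were neither background-subtracted nor normalized between arrays. Detection p-values deposited by the authors compare each signal with the negative controls of its array. The authors also deposited log2 values, quantile-normalized and centred on each probe's median. Here neqc of limma 3.58.1 (R 4.3.3, offset 16) was applied to the intensities, and 14870 probes with detection p under 0.05 on at least 8 arrays were tested with lmFit and eBayes, group as the only term, and Benjamini-Hochberg adjustment over all of them. Symbols were updated by Entrez ID, 1719 probes had none and 16 IDs had no match. A gene is given by its brightest tested probe, and levels are not compared between probes. Rose and fell mean an adjusted p under 0.05. The test was tried on simulated data first. The study's methods give 4 CON and 8 LUN litters, so some CON mice may have shared a litter, and mice were treated as independent. Replicate numbers did not pair the arrays.

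Genes named in the text are the members past the adjusted p, the largest other change of each subfamily, members whose probes differ in call and, of the genes past the adjusted p, up to 4 a list. The other tested members, and Calm3, Nrcam, Nedd4l and Rims1, were named after their values had been seen. Members, lists and rules were chosen with earlier results of these data known. Alternatives covered detection filters, normalization, background, the deposited log2 values, the methods' t-test, array weights, BeadChip, replicate number, single arrays, CON 4 with CON 8, and other probes. RefSeq upstream windows (GRCm38.p6) were matched by symbol for 42 of the 50 genes, and windows were used only where the start lies at the outer end of the gene.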

Additional observations from a re-analysis of the deposited data

Results flagged for a closer look

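In groups of 8 arrays, a lone array was looked for in each of the 53 tested probes, 106 groups in all, of which chance alone would mark about 5%. A wide gap compared with the group's range was found in 7 of them. Cacng5 on CON 4 stood at 10.44, while the other CON arrays ran from 9.63 to 10.01. Cacng2 on the same array stood at 6.61, below the other CON arrays at 6.76 to 6.88. Cacnb2 on CON 1 stood at 6.01, below the other CON arrays at 6.86 to 7.34, and the change of Cacnb2 was 0.20 without it. The dimmer Cacna1d probe stood at 4.72 on LUN 3, below the other LUN arrays at 5.23 to 5.46. Trpm2 on LUN 4 stood at 5.37, below the other LUN arrays at 5.82 to 5.99. One Trpm3 probe stood at 5.58 on CON 4, above the other CON arrays at 4.91 to 5.19, and at 6.44 on LUN 7, above the other LUN arrays at 4.68 to 5.44.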

How the results depend on the processing

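The 5 rises and 2 falls were all called again under each other detection filter, the deposited log2 values, the methods' t-test and array weights. They were also called with BeadChip as a block, no background correction or an offset of 50. The same held with CON 4 and CON 8 left out, a pair picked from these same data. It held too with each of the 16 arrays left out in turn (5 to 6 rises, 2 falls, 1 past 1.5-fold). Without normalization between arrays, 1 gene rose and 10 fell, and Cacna2d3 reversed, to a change of −0.043. Median scaling gave 4 rises and 4 falls, with Scn2b and Trpc7 among the falls. Both settings moved the median of all tested genes, to −0.26 and −0.10, with 1.19% higher and 60.1% lower in the first and 3.42% and 28.3% in the second, against 7.17% and 8.59%; relative to that median Cacna2d3 had a change of 0.22 under either. No gene was past 1.5-fold with no background correction or an offset of 50 (0 genes each), where Trpm6 rose by 0.52 and 0.58. BeadChip 1 alone gave 0 rises, 0 falls and 0 past 1.5-fold, and BeadChip 2 alone gave 1, 0 and 0, with fewer arrays tested. At an unadjusted p under 0.05 limma gave 7 rises and 2 falls, and 7 and 3. The share of all tested genes at that unadjusted p was not computed, so nothing is read from these counts. Another setting took each gene's dimmest probe among those detected on the most arrays. It gave 0 falls (0 also at an unadjusted p) and reversed Cacnb4 to −0.17. For Trpm6 and Cacna1d that was still the brightest probe, and the Trpm3 probe with a change of −0.33 was not used. The mean over probes gave 0 falls (0 also at an unadjusted p), and Cacnb4 did not pass there. The replicate number as a block, for numbers that pair nothing (0 of 8 pairs correlated over 0.1), gave 6 rises, 2 falls and 1 past 1.5-fold, with Cacna1g added (adjusted p 0.0433; range over alternatives 0.000932 to 0.891). Cacna1g also passed without CON replicate 4 or CON replicate 8. The number of arrays and, for probes near the negative controls such as Trpv5, Trpv6 and Scn7a, the low signal limit what could be detected.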
